A study of Mus musculus with 8 samples.

Results

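The 40 genes described here encode the machinery that copies DNA and the switch that admits a cell to S phase, and they were taken by name from a table of raw read counts for 55414 mouse genes. They comprise the 6 subunits of the MCM helicase (Mcm2 to Mcm7), the factors that place and start it (Orc1, Cdc6, Cdt1, Mcm10, Cdc45, Gins1, Gins2), the sliding clamp and its loader (Pcna, Rfc1 to Rfc5), polymerases and primase (Pola1, Pola2, Prim1, Prim2, Pold1, Pole), and the strand-processing proteins Rpa1, Rpa2, Fen1, Lig1 and Ung. The remainder supply deoxynucleotides (Rrm1, Rrm2, Tyms), restore chromatin (Chaf1a, Chaf1b, Uhrf1, Slbp) or drive G1/S (E2f1, Ccne1, Ccne2). All 40 were present in the table, and all 40 were among the 15150 genes that passed the expression filter (edgeR filterByExpr), with raw counts per library down to 34 for Orc1.

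RNA came from cultured mouse cardiac fibroblasts, the matrix-producing cells of the heart, in 8 poly(A) libraries. Of these, 4 were from cells given an adenovirus for green fluorescent protein (GFP) and 4 from cells given an adenovirus for Has2, the hyaluronan synthase that makes hyaluronan at the cell surface. Both groups were C57BL/6J cells at passage 2, kept without serum for 24 h, exposed to virus for 5 h, and then held for 48 h in fresh medium with bFGF and TGFb, each at 20 ng/mL, so that every library carried a mitogen and a fibrogenic cytokine as well as a virus. The sample labels give the genotype as wild type, whereas the treatment protocol names Has2fl/fl mice. In each group replicates 1 and 2 were female and replicates 3 and 4 male, and the libraries' names share a preparation number between the groups, with an S series for the female and an R series for the male libraries. Sex and preparation series therefore cannot be told apart. The labels do not say whether the replicates were separate animals, so the tests measure the spread between these samples.

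In G1 the origin recognition complex, Cdc6 and Cdt1 load MCM rings on origins. Cyclin E, made from Ccne1 or Ccne2, and its kinase then help to fire them, with Cdc45 and the GINS complex completing the active helicase. Many of these genes are transcribed by E2F factors once the retinoblastoma protein is phosphorylated, so their transcripts tend to rise and fall together with the share of cycling cells. Cardiac fibroblasts divide little in the healthy heart and proliferate after injury and in culture. In bulk RNA, fewer cycling cells and less RNA per cycling cell cannot be told apart.

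Library totals lay between 46981231 and 55795187 gene-assigned counts. Levels are given as CPM, counts per 1000000 of a library size scaled by edgeR's TMM factor. The virus label was borne out by Has2 itself, at 25.2, 7.36, 18.3 and 21.3 CPM in GFP replicates 1 to 4. In Has2 replicates 1 to 4 it was at 9533, 8406, 3209 and 4860 CPM (log2 difference 8.46, SE 0.55, edgeR adjusted p = 0.0226). The 9 fibroblast markers summed to 20036 to 32436 CPM in the GFP and 19589 to 34133 CPM in the Has2 libraries. The 11 macrophage markers were all present and summed to 989 to 2411 CPM in the GFP and 928 to 2561 CPM in the Has2 libraries. Cardiomyocyte markers (7 genes, of which 2 passed the expression filter) summed to at most 9.15 CPM and endothelial markers (6 genes) to at most 47.1 CPM.

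Scaled by the length of each gene's longest annotated transcript, the sliding clamp Pcna was the most abundant of the 40. Its mean over the 8 libraries was 29.9 CPM per kilobase. It was followed by the single-strand binding subunit Rpa1 (24.6 CPM per kilobase), the transcription factor E2f1 (18.8) and the large subunit of ribonucleotide reductase Rrm1 (18.6). The lowest were Orc1 (0.398 CPM per kilobase), Mcm10 (0.678), the MCM loader Cdc6 (0.683) and the leading-strand polymerase Pole (0.829). Of the 4 lowest by this scaling, 3 act in loading or activating the helicase at origins. The order depends on the transcript chosen. Without length scaling Rpa1, Rrm1, Mcm6 and E2f1 were above Pcna, with GFP means of 125.8, 99.97, 53.8, 49.3 and 48.5 CPM.

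Most of the 40 genes shared the replicate number at which they were highest. Their mean log2 CPM was 3.75, 3.71, 3.83 and 4.13 in GFP replicates 1 to 4, and 3.72, 3.45, 3.76 and 4.15 in Has2 replicates 1 to 4. Replicate 4 was thus the highest under both viruses and Has2 replicate 2 the lowest library of all. Replicate 4 held the highest value of its group for 31 of the 40 in the GFP libraries (77.5%, against 21.3% of all genes tested) and for 31 in the Has2 libraries (77.5%, against 19.6%). It was highest under both viruses for 27 (67.5%, against 9.35%). Has2 replicate 2 was the lowest Has2 library for 22 (55.0%, against 23.6%). These shares are descriptions, since the genes of 1 library share its RNA.

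**Figure D1:**
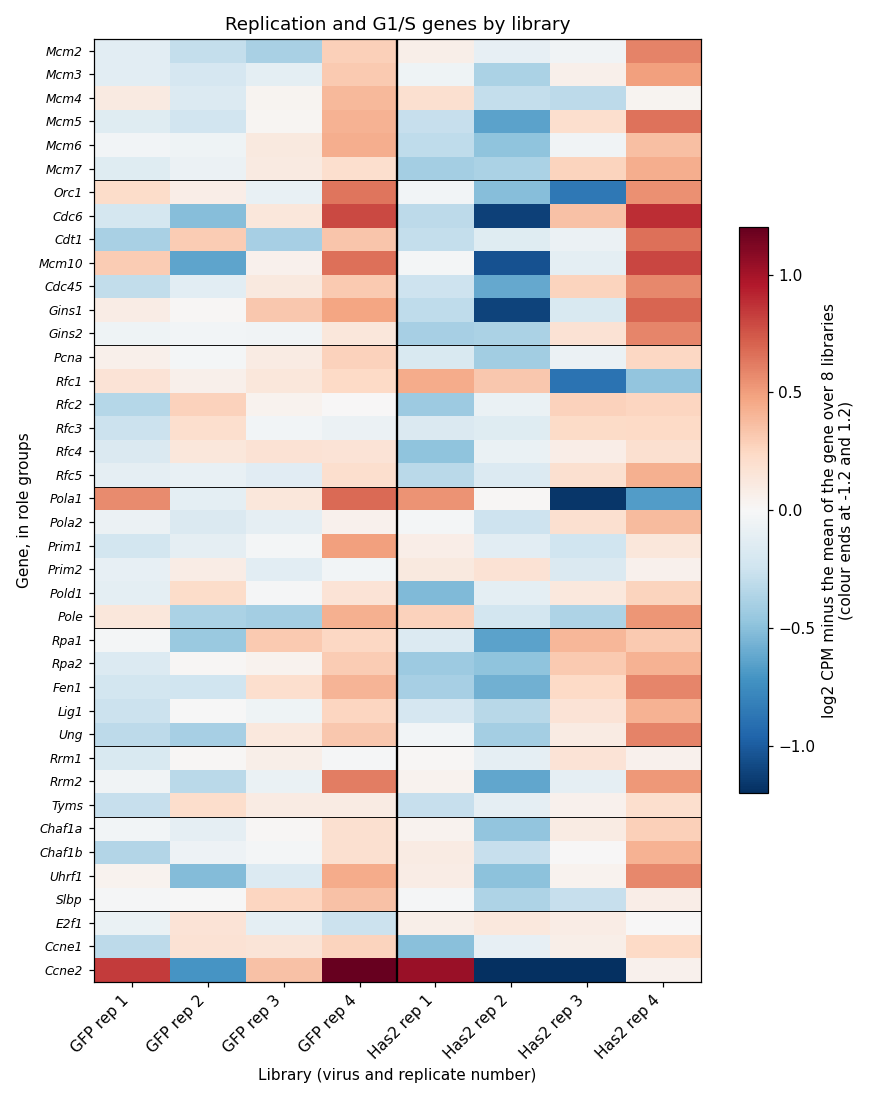
Log2 CPM of each of the 40 genes (rows, in role groups) in the 8 libraries (columns), shown as the difference from the gene's mean over the 8, with colour for higher or lower. Replicate 4 stands high under both viruses for most rows, and Has2 replicate 2 stands low.

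Single genes show the size of this spread. Cdc6 was at 2.58, 2.10, 3.28 and 5.16 CPM in GFP replicates 1 to 4 and at 2.41, 1.37, 3.83 and 5.52 CPM in Has2 replicates 1 to 4. Mcm10, which helps to activate the loaded helicase, was at 3.78, 1.97, 3.18 and 4.85 CPM in the GFP libraries and 3.00, 1.48, 2.82 and 5.31 CPM in the Has2 libraries. Rrm2, the reductase subunit made in S phase, was at 19.5, 16.1, 18.9 and 30.7 CPM with GFP and 20.6, 12.99, 18.7 and 28.7 CPM with Has2. In all of these, replicate 4 was the highest and replicate 2 the lowest of each group, and the groups overlapped.

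The highest library exceeded the lowest 4.01-fold for Cdc6 and 3.60-fold for Mcm10, but only 1.27-fold for Rrm1 and 1.28-fold for the primase subunit Prim2. Ccne2 had the widest spread, 8.82-fold. E2f1 did not follow this order: it was at 48.7, 57.8, 47.6 and 43.2 CPM in GFP replicates 1 to 4 and 54.2, 56.5, 54.8 and 51.6 CPM in Has2 replicates 1 to 4, lowest in GFP replicate 4, where most of the 40 were highest.

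For each gene the mean of its 2 libraries was taken for every replicate number, on the log2 scale. The range of these 4 means was a median of 0.66 over the 40, and the median absolute log2 difference between the viruses was 0.10. The range exceeded the virus difference in 40 of 40 genes, as it did in 94.1% of all genes tested, for which the medians were 0.59 and 0.13. A range takes the furthest apart of 4 means, while the virus difference is averaged over 4 pairs. The range therefore tends to be the larger even without replicate effects, and this count cannot weigh replicates against virus. Macrophage marker sums were also high in replicate 4 (2208 CPM with GFP, 2561 CPM with Has2) and low in replicate 2 (989 and 928 CPM), but replicate 1 was high in them too (2411 and 2285 CPM) and not in the 40 genes. The part of these cells in the spread was not tested. The 30 genes of a G2 and mitosis list had a mean log2 CPM of 4.06 in GFP replicate 4 and 3.67 in Has2 replicate 4, each the highest of its group, and their lowest value was 3.00 in Has2 replicate 2.

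**Figure D2:**
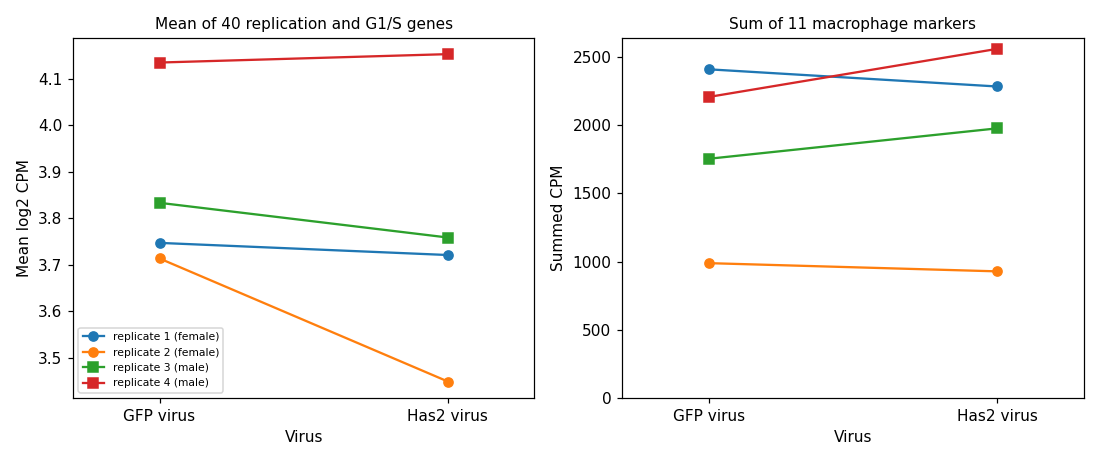
Left, mean log2 CPM of the 40 genes, and right, summed CPM of 11 macrophage markers, in each library, with the GFP and Has2 library of a replicate number joined (circles female, squares male). On the left replicate 4 is highest (4.13 and 4.15) and Has2 replicate 2 lowest (3.45); on the right replicate 1 lies near replicate 4.

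The promoters of the 40 genes were also searched for E2F-type sites, as a description. Whether a match goes with the replicate pattern above was not tested. RefSeq promoter windows (GRCm38.p6, 250 bases before to 50 after the annotated start) were found for 33 of the 40 genes. The letters searched were TTTCCCGC, TTTGGCGC, TTTCGCGC and TTTGCCGC on both strands. Matches that share bases, on the same or opposite strands, were each counted. At least 1 match was present for 12 of the 33 genes (36.4%), against 704 of 27025 genes in the whole promoter table (2.6%). These were Mcm3, Mcm5, Mcm6, Mcm7, Orc1, Cdc6, Cdt1, Rfc3, Pola1, Pold1, Lig1 and Uhrf1. The following 4 windows are shown because they belong to genes whose values are given in full further on, from the gene with most matches (Mcm6, 3) to one with none (Rfc1), each 5′ to 3′ on the gene's strand with matches in capitals. Mcm6 is at chr1:128359656-128359955 (minus strand), Mcm5 at chr8:75109259-75109558 (plus), Pola1 at chrX:93632106-93632405 (minus) and Rfc1 at chr5:65335590-65335889 (minus).
Mcm6: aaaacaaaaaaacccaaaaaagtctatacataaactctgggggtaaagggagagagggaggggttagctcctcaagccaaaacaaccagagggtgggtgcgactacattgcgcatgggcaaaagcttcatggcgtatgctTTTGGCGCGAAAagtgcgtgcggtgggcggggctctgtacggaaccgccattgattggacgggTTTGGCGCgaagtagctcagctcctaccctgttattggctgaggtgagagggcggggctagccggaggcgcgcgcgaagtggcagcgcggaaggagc
Mcm5: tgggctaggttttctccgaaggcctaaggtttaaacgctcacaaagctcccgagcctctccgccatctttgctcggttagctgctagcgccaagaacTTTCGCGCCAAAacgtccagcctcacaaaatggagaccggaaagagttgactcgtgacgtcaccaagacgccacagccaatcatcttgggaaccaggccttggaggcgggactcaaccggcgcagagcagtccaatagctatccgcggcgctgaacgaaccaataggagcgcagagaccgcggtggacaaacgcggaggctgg
Pola1: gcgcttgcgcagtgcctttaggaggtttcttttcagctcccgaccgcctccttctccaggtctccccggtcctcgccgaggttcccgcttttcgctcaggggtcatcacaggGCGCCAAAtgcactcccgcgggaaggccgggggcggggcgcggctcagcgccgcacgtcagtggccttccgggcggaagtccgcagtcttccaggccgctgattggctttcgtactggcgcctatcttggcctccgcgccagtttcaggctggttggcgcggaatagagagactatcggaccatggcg
Rfc1: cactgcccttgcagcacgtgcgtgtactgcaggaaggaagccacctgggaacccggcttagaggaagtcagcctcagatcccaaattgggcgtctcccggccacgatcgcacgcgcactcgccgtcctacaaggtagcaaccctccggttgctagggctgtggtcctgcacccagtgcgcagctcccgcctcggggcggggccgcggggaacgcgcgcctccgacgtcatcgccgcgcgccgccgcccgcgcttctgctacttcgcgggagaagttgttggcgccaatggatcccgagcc
The Mcm6 matches begin 110, 106 and 47 bases before the start, the first pair overlapping; those of Mcm5 begin 153 and 149 bases before it and overlap, and that of Pola1 begins 138 bases before it. A match is a run of letters and was not tested as a bound site.

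None of the 40 genes was called for the Has2 virus against the GFP virus, in the edgeR quasi-likelihood fit with replicate number as a block (Benjamini-Hochberg adjusted p from 0.648 to 0.999, over 15150 genes). Over all genes 1 of 15150, Has2 itself, passed the same threshold of 0.05 (0.00660%). At an unadjusted p under 0.05 there were 3 of the 40 (7.50%), against 1134 of all genes (7.49%): Mcm2 with a positive difference, Slbp and Ccne2 with negative ones. Log2 differences (Has2 minus GFP) ran from -0.99 to 0.26 with a median of -0.046, against -0.024 for all genes. They were negative for 25 (62.5%, against 54.8% of all genes) and positive for 15. The signs of Cdc45 and Gins2, both within 0.01 of 0, turned under relative log expression scaling. The median log2 ratio was 0.022 in pair 1, -0.31 in pair 2, 0.057 in pair 3 and 0.11 in pair 4, so that pair 2 was set apart from the others.

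How large a difference these libraries leave possible can be read from the intervals. For 38 of the 40 genes the 95% interval lay within 2-fold in either direction, as for 84.4% of all genes tested, and for 35 it lay within 1.5-fold. The exceptions to the 2-fold bound were Pola1 and Ccne2. In the same direction in all 4 pairs were 3 genes that were higher with Has2 (Mcm2, Pole, Uhrf1; 7.50%, against 9.16% of all genes) and 5 that were lower (Mcm6, Orc1, Pcna, Slbp, Ccne1; 12.5%, against 7.96%). For 0 of the 40 did the Has2 and GFP libraries fail to overlap, against 2.38% of all genes. Within the male pairs alone, a fit chosen after seeing the data that leaves 1 residual degree of freedom, edgeR called 11 of the 40 and 5035 of all genes, and within the female pairs alone 0 of the 40 and 732 of all genes.

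**Figure D3:**
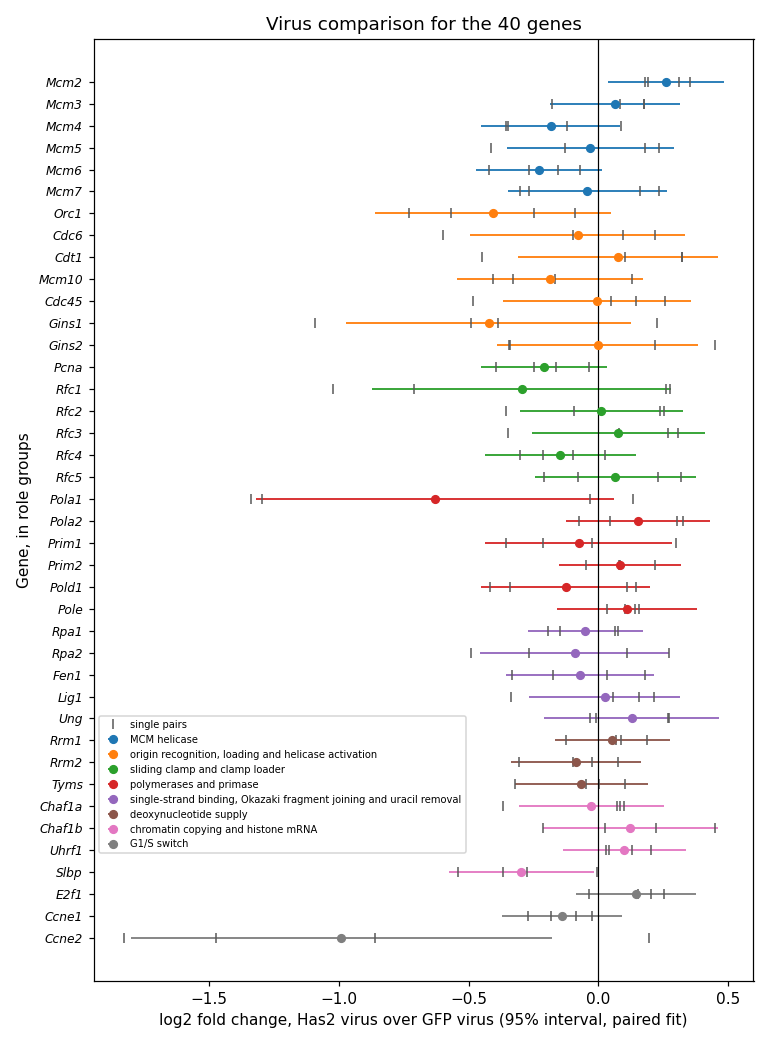
Log2 difference, Has2 virus minus GFP virus, for each gene with its 95% interval from the paired fit (circle and line, coloured by role) and the log2 ratio of each of the 4 pairs (ticks). Most intervals span 0 and lie within 1 log2 unit; Ccne2 and Pola1 are the widest.

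Among the helicase subunits, the median log2 difference was -0.036. Mcm2 (ENSMUSG00000002870) was at 24.1, 21.6, 20.0 and 31.9 CPM in GFP replicates 1 to 4 and at 27.5, 24.5, 25.6 and 39.7 CPM in Has2 replicates 1 to 4. It was higher in 4 of 4 pairs while the groups overlapped, and its log2 difference was 0.26 (SE 0.094, 95% interval 0.036 to 0.48; edgeR adjusted p = 0.648). Mcm6 (ENSMUSG00000026355) went the other way, at 48.0, 47.3, 53.3 and 66.5 CPM with GFP and 39.9, 35.3, 47.9 and 63.3 CPM with Has2. It was lower in 4 of 4 pairs, with a log2 difference of -0.23 (SE 0.10, edgeR adjusted p = 0.648). These subunits sit in 1 ring in equal number, and the other 4 had differences between -0.18 (Mcm4) and 0.065 (Mcm3). Mcm4 was at 33.3, 27.7, 31.6 and 40.6 CPM with GFP and 35.5, 25.4, 24.9 and 31.7 CPM with Has2, lower in 3 of 4 pairs (SE 0.11; trend-removed -0.065, that is, with a trend on transcript GC content and length, fitted over all genes, taken out of each library). The differences for Mcm5 and Mcm7, whose CPM are given with the comparison of sexes, were -0.030 (SE 0.14) and -0.042 (SE 0.13).

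The initiation factors had a median of -0.079. Orc1, the largest subunit of the origin recognition complex, was at 1.33, 1.21, 1.07 and 1.78 CPM with GFP and 1.11, 0.800, 0.632 and 1.67 CPM with Has2. Each Has2 library was below its partner, but Has2 replicate 4 was above 3 of the 4 GFP libraries (log2 difference -0.41, SE 0.19). Gins1, of the GINS complex, was at 2.18, 2.06, 2.55 and 2.83 CPM with GFP and 1.65, 0.944, 1.80 and 3.32 CPM with Has2, so that Has2 replicates 1 to 3 lay below and replicate 4 above all GFP libraries (log2 difference -0.42, SE 0.23; trend-removed -0.27). The difference for its partner Gins2 was -0.0013 (SE 0.16).

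Cdt1, the licensing factor destroyed in S phase, was at 6.19, 10.01, 6.15 and 10.2 CPM with GFP and 6.65, 7.33, 7.71 and 12.8 CPM with Has2 (log2 difference 0.077, SE 0.16), lower in pair 2 and higher in the other 3. Cdc45, which rides with the moving helicase, was at 5.98, 6.70, 7.98 and 9.14 CPM with GFP and 6.18, 4.78, 8.82 and 10.9 CPM with Has2 (-0.0038, SE 0.15), again lower only in pair 2. The differences for Cdc6 and Mcm10 were -0.079 (SE 0.17) and -0.19 (SE 0.15), with intervals that spanned 0.

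The clamp and clamp loader had a median of -0.067. Pcna, which tethers polymerases to DNA, was at 46.9, 44.3, 48.0 and 54.6 CPM with GFP and at 39.6, 33.7, 42.9 and 53.2 CPM with Has2. It was lower in 4 of 4 pairs, by a margin that was smallest in pair 4 (log2 difference -0.21, SE 0.10, 95% interval -0.45 to 0.033). Trend-removed, the Pcna difference was -0.015. Of the loader subunits, Rfc2 to Rfc5 had differences between -0.15 (Rfc4) and 0.078 (Rfc3). Rfc3 was at 10.3, 14.2, 12.004 and 11.8 CPM with GFP and 10.9, 11.1, 14.5 and 14.6 CPM with Has2, lower only in pair 2 (SE 0.14). Its difference was further from 0 trend-removed, at 0.33. Rfc4 was at 5.20, 6.42, 6.62 and 6.55 CPM with GFP and 4.205, 5.54, 6.19 and 6.68 CPM with Has2, higher only in pair 4 (SE 0.12).

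The polymerase and primase genes had a median of 0.0046. Pole, the leading-strand polymerase, was at 6.32, 4.43, 4.33 and 7.74 CPM with GFP and 6.97, 4.95, 4.44 and 8.33 CPM with Has2, a log2 difference of 0.11 (SE 0.11). Pold1, the lagging-strand polymerase, was at 13.5, 17.05, 14.5 and 16.3 CPM with GFP and 10.1, 13.4, 15.99 and 17.6 CPM with Has2 (-0.12, SE 0.14), lower in both female pairs and higher in both male pairs. Prim1, the catalytic primase subunit, was at 4.08, 4.43, 4.68 and 6.71 CPM with GFP and 5.03, 4.35, 4.03 and 5.23 CPM with Has2 (-0.075, SE 0.15). Pola2, the accessory subunit of polymerase alpha, was at 13.01, 12.1, 12.6 and 14.2 CPM with GFP and 13.4, 11.5, 15.6 and 17.8 CPM with Has2 (0.15, SE 0.12). Prim2, the large primase subunit, was at 16.7, 19.04, 16.3 and 17.4 CPM with GFP and 19.4, 20.2, 15.8 and 18.5 CPM with Has2 (0.084, SE 0.099). Trend-removed, the differences for Pold1, Pola2 and Prim2 were further from 0, at -0.22, 0.22 and 0.35. None of them was called (edgeR adjusted p from 0.343 to 0.494). In that fit Pole was nearer 0, at 0.056, and Prim1 turned to 0.12. With the trend left in, Pola2 had the highest difference of this set and Pola1 the lowest (-0.63, SE 0.29, 95% interval -1.32 to 0.061). The Pola1 difference was -0.36 trend-removed. The CPM of Pola1 are given with the comparison of sexes.

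Strand-processing genes (Rpa1, Rpa2, Fen1, Lig1, Ung) had a median of -0.049. Fen1, the nuclease that trims Okazaki fragments, was at 14.7, 14.5, 19.8 and 22.8 CPM with GFP and 13.1, 11.6, 20.2 and 25.8 CPM with Has2 (-0.070, SE 0.12). Ung, which removes uracil from DNA, was at 2.28, 2.15, 3.10 and 3.54 CPM with GFP and 2.77, 2.13, 3.03 and 4.27 CPM with Has2 (0.13, SE 0.14). Both were higher in male than in female libraries under each virus, and the virus groups overlapped.

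The 3 deoxynucleotide genes had a median of -0.064, and their intervals all lay within 1.5-fold. Tyms, the thymidylate synthase, was at 22.8, 32.1, 29.6 and 29.7 CPM with GFP and 22.9, 25.7, 28.6 and 31.9 CPM with Has2 (-0.064, SE 0.11). The Rrm1 difference was 0.055 (SE 0.093) and the Rrm2 difference -0.086 (SE 0.11). Trend-removed, these 2 differences were 0.26 and 0.050.

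Among the chromatin genes (median 0.037), Slbp, which binds the stem-loop of histone mRNAs, was at 22.6, 22.6, 27.3 and 29.0 CPM in the GFP libraries and at 22.5, 17.5, 18.7 and 24.0 CPM in the Has2 libraries. Pair 1 was lower with Has2 by only 0.0043 on the log2 scale and the other 3 pairs by more (log2 difference -0.30, SE 0.12, 95% interval -0.58 to -0.018; edgeR adjusted p = 0.648). Trend-removed, the difference was -0.11. Uhrf1, which carries DNA methylation through replication, was 14.6, 9.82, 12.6 and 19.2 CPM with GFP and 15.0, 10.0, 14.5 and 21.0 CPM with Has2, with a log2 difference of 0.10 (SE 0.099). Chaf1b, of the chromatin assembly factor, was at 6.36, 7.80, 8.02 and 9.30 CPM with GFP and 8.71, 6.73, 8.17 and 10.8 CPM with Has2 (0.12, SE 0.14), and its partner Chaf1a had a difference of -0.026. Only pair 2 was lower with Has2 for Chaf1b.

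In the G1/S switch (median -0.14) the 2 cyclin E genes differed in their spread. Ccne2 (ENSMUSG00000028212) was at 4.67, 1.60, 3.34 and 7.60 CPM in GFP replicates 1 to 4 and at 5.35, 0.862, 0.910 and 2.71 CPM in Has2 replicates 1 to 4. It was higher with Has2 in pair 1 and lower in the other 3 pairs, with the furthest negative difference of the 40 (log2 -0.99, SE 0.34, 95% interval -1.80 to -0.18; edgeR adjusted p = 0.648). Its trend-removed difference was -0.51. Ccne1 was at 16.8, 23.6, 23.3 and 25.1 CPM with GFP and 14.8, 19.5, 21.98 and 24.7 CPM with Has2, lower in 4 of 4 pairs by a small margin (log2 -0.14, SE 0.098). E2f1 had a log2 difference of 0.14 (SE 0.097).

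The response to the virus was then compared between the male and female pairs, as the difference of the log2 differences (male minus female). Has2 itself differed in this way, with 9533 and 8406 CPM in the female and 3209 and 4860 CPM in the male Has2 libraries. Its male minus female log2 difference was -1.66 (SE 0.38, edgeR adjusted p = 0.00844). In the trend-removed fit it was -0.84 and not called (edgeR adjusted p = 0.218). As counted, the sexes were thus compared at unequal Has2 levels. In the paired fit 9 of the 40 genes passed an edgeR adjusted p of 0.05 (22.5%), a lower share than among all genes tested (29.5%). Of these, 6 had a more positive response in the male pairs (15.0%, against 11.5% of all genes) and 3 a more negative one (7.50%, against 18%). The first were Mcm5, Mcm7, Gins2, Rfc2, Pold1 and Rpa2, the second Rfc1, Pola1 and Ccne2. Without the replicate block 0 of the 40 were called (4 at an unadjusted p under 0.05; smallest edgeR adjusted p = 0.159), and 0 of all genes. The paired interaction fit leaves 2 residual degrees of freedom, and sex cannot be told apart from the preparation series.

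Rfc1 (ENSMUSG00000029191), the large clamp loader subunit, was at 37.0, 34.4, 36.3 and 38.9 CPM in GFP replicates 1 to 4 and at 44.8, 41.2, 17.9 and 23.8 CPM in Has2 replicates 1 to 4. The 2 male Has2 libraries were the lowest of the 8, and the 2 female ones the highest. Its male minus female difference was -1.13 (SE 0.14, edgeR adjusted p = 0.000193). Pola1 (ENSMUSG00000006678), the catalytic subunit of polymerase alpha, was at 12.5, 7.80, 9.31 and 13.5 CPM with GFP and 12.3, 8.56, 3.77 and 5.31 CPM with Has2, again lowest in the male Has2 libraries (difference -1.37, SE 0.17, edgeR adjusted p = 0.000182). For Ccne2 the difference was -1.46 (SE 0.34, edgeR adjusted p = 0.00877). Its 2 female pairs went opposite ways, with a log2 ratio of 0.20 in pair 1 and -0.86 in pair 2. The male pairs were at -1.83 and -1.48. With pair 1 left out, Ccne2 was no longer called.

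Genes in the other direction moved less. Gins2 was at 13.5, 13.7, 13.6 and 15.4 CPM with GFP and 10.7, 10.8, 15.8 and 21.0 CPM with Has2, so that the female Has2 libraries were below and the male ones above all 4 GFP libraries (male minus female 0.68, SE 0.15, edgeR adjusted p = 0.00666). Mcm5 was at 19.5, 18.4, 21.8 and 28.7 CPM with GFP and 17.8, 13.8, 24.7 and 33.8 CPM with Has2, a difference of 0.48 (SE 0.14). Mcm7 was at 28.3, 29.8, 33.7 and 36.0 CPM with GFP and 23.6, 24.1, 37.7 and 42.3 CPM with Has2, also a difference of 0.48 (SE 0.12). The remaining called genes were Rfc2 (0.47), Pold1 (0.51) and the binding subunit Rpa2 (0.57). Subunits of 1 complex were thus divided: Rfc1 was on one side and Rfc2 on the other, with the difference for Rfc4 at 0.22 and for Rfc5 at 0.42, neither called.

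Over the 40 genes the male minus female difference was positive for 31 (77.5%, against 52.4% of all genes) with a median of 0.22 (all genes 0.032). The median response was -0.17 for female pairs and 0.10 for male pairs. Within the female pairs, the negative median came from pair 2 (-0.31) and not from pair 1 (0.022). Leaving out pair 1 gave 15 called of the 40 and 4972 of all genes, and leaving out pair 2 gave 8 and 4840, with Mcm5, Rfc2 and Rpa2 no longer called. Leaving out pair 3 gave 4 and 2658, and leaving out pair 4 gave 3 (Rfc1, Pola1 and Ccne2) and 2353. DESeq2 with the block called 6 of the 40 and 3389 of all genes, without Mcm5, Pold1 and Rpa2.

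The difference moved with the base composition of the transcripts. As a description over the 40 genes, which share their libraries, the male minus female difference had a Spearman rho of 0.55 with the GC content of the longest transcript. The GC content of the 6 genes on the positive side had a median of 52.7%, while Ccne2 was at 36.3%, Pola1 at 41.5% and Rfc1 at 46.5%. The rho was 0.63 for the response in the male pairs alone and -0.18 for that in the female pairs. In the trend-removed fit the rho was -0.13. That step takes out a trend on GC content, so a rho near 0 is largely set by it and decides nothing. In this fit 4 of the 40 were called by edgeR. Rfc2 (0.51), Rfc3 (0.87) and Rrm1 (0.73) were on the positive side (7.50%, against 5.93% of all genes). Rfc1 (-0.84) was on the negative side (2.50%, against 4.69%). Rfc1 and Rfc2 were thus called in both, and the difference for Ccne2 went from -1.46 to -0.45 and for Pola1 from -1.37 to -0.53 (edgeR adjusted p = 0.0506). Gins2 went from 0.68 to 0.50 and also lost its call (edgeR adjusted p = 0.0565). The median difference over the 40 was 0.21 after this step (all genes 0.0045), with 29 positive (72.5%, against 50.5% of all genes).

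**Figure D4:**
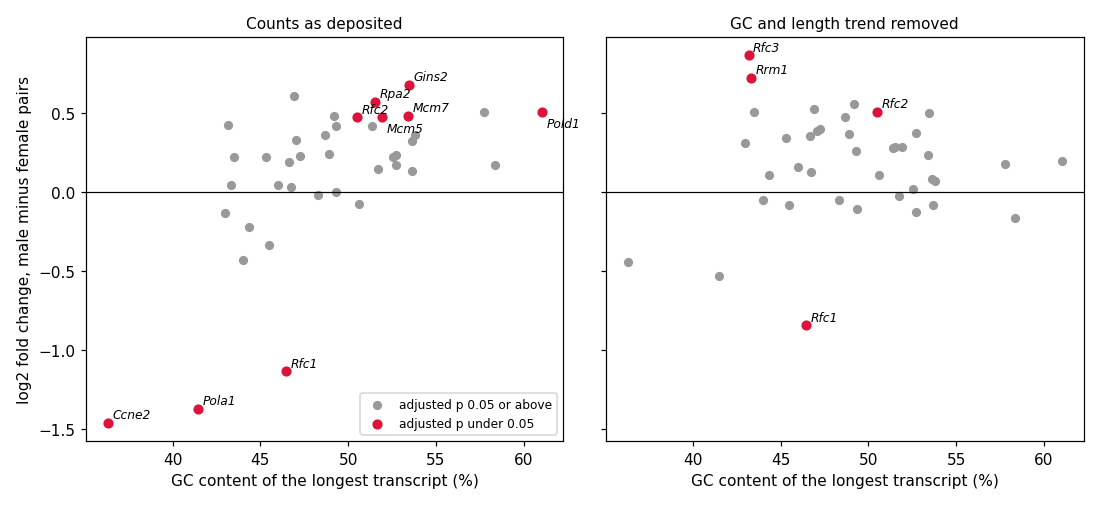
Male minus female difference in the log2 virus response (vertical axis) against transcript GC content in percent (horizontal axis), 1 point per gene, before and after removal of the GC and length trend. Before it Rfc1, Pola1 and Ccne2 lie far below the other genes; after it Rfc1 remains low and Pola1 and Ccne2 lie nearer 0.

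Other genes of the pathway were examined as lists. Of 44 further replication genes (other origin recognition, polymerase, alternative clamp loader and histone chaperone genes), 0 were called by edgeR. The difference was negative for 35 (79.5%, against 54.8% of all genes) and positive for 9. Their median was -0.15, and -0.027 once the trend on GC content and length was taken out. The groups did not overlap for 3 of the 44 (6.82%, against 2.38% of all genes): the histone chaperone Asf1a, and Dscc1 and Chtf8 of an alternative clamp loader. Asf1a was at 13.7, 12.1, 14.7 and 14.0 CPM with GFP and 10.98, 10.3, 7.86 and 9.59 CPM with Has2, a log2 difference of -0.50 (SE 0.14), which was -0.080 after the trend was removed. Gmnn, whose product geminin holds Cdt1 inactive, was at 6.40, 8.90, 8.79 and 9.003 CPM with GFP and 5.75, 6.16, 5.13 and 7.08 CPM with Has2. It was lower in 4 of 4 pairs although the groups overlapped (log2 difference -0.45, SE 0.14; -0.39 after the trend was removed), and it too was not called (edgeR adjusted p = 0.648). Orc4, of the origin recognition complex, had a difference of -0.72 (SE 0.27; trend-removed -0.30), Dscc1 one of -0.48 (SE 0.21; trend-removed -0.14) and Chtf8 one of 0.35 (SE 0.12; trend-removed 0.30).

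Of 30 regulators of the G1/S step (D cyclins, cyclin-dependent kinases and their inhibitors, retinoblastoma family and E2F genes, Myc), 0 were called, 14 were positive and 16 negative, with a median of -0.018. Cdkn1a, which encodes the kinase inhibitor p21, was at 562, 865, 667 and 604 CPM with GFP and 656, 822, 784 and 711 CPM with Has2. It was higher in 3 of 4 pairs (log2 difference 0.15, SE 0.097). Myc had a difference of 0.15 (SE 0.10), the kinase inhibitor Cdkn1c one of 0.23 (SE 0.17) and E2f5 one of -0.21 (SE 0.15). Cyclin D1 (Ccnd1) was at 2709, 1430, 2031 and 2054 CPM with GFP and at 2441, 1319, 2347 and 2341 CPM with Has2, lower in both female pairs and higher in both male pairs (log2 difference 0.033, SE 0.11). Of the 30 G2 and mitosis genes, 0 were called and 29 had a negative difference (96.7%, against 54.8% of all genes). Their median was -0.17 (-0.036 for female and -0.33 for male pairs), and -0.13 with the trend removed.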

How the data were processed

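Poly(A) RNA of 8 cardiac fibroblast cultures (TruSeq stranded mRNA) was sequenced. The authors deposited raw counts per gene, made with HTSeq 0.10.0 after FastQC 0.10.1 on mm39, per the submitters' processing notes; not given in the sources used here were the aligner, the strand option and the gene models' release, so antisense and overlapping genes may share reads. Symbols came from a GENCODE M21 table (52081 of 55414 identifiers; the other 3333 held 0.405% to 0.871% of counts).

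Counts were tested in edgeR 4.0.16 under R 4.3.3 (quasi-likelihood) with TMM scaling and filterByExpr, replicate number as a block, Benjamini-Hochberg adjustment over 15150 genes and a threshold of 0.05. The libraries' names share preparation numbers within a replicate number, and deviations from group means correlated at 0.58, 0.62, 0.53 and 0.44 within numbers 1 to 4 (at most 0.31 between numbers). Standard errors had a median of 0.14 with and 0.23 without the block. Interactions used a group-by-sex term. CPM are per library size after the expression filter, multiplied by the library's TMM factor (0.935 to 1.06). Alternatives were no block, relative log expression scaling, library totals, other filters, DESeq2 1.42.0, limma-voom (limma 3.58.1), a GC and length trend (available for 99.8% of genes, 5 spline degrees of freedom), left-out libraries and pairs, and, chosen after seeing the data, each sex alone. Scripts were tested on simulated data. By the naming rule, values per library are given for 22 members fixed by role, 8 further ones with the smallest p and 6 with the smallest interaction p, and up to 4 genes of each other list with the smallest p are named; Ccnd1 and Dscc1 were chosen after their values were seen. The members and lists were chosen with earlier results of these data known. A match to promoters used RefSeq GRCm38.p6, another build than the counts, and no coordinates were joined to them.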

Additional observations from a re-analysis of the deposited data

Results flagged for a closer look

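Of 80 sets of 4 libraries tested for a library far from its group (40 genes in 2 groups; chance gives about 1 in 20), 4 had one. In GFP replicate 4, Mcm3 was at 36.1 CPM against 25.3 to 26.8 CPM in the other 3, Gins2 at 15.4 CPM against 13.5 to 13.7 CPM, and Rfc5 at 12.3 CPM against 9.78 to 10.1 CPM. In GFP replicate 1, Rfc4 was at 5.20 CPM against 6.42 to 6.62 CPM.

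The response to the virus differed between male and female pairs, by the edgeR interaction term, for 9 of the 40 genes (22.5%, against 29.5% of all genes tested). The male minus female log2 difference was 0.48 for Mcm5, 0.48 for Mcm7, 0.68 for Gins2, 0.47 for Rfc2, 0.51 for Pold1 and 0.57 for Rpa2. It was -1.13 for Rfc1, -1.37 for Pola1 and -1.46 for Ccne2. Of these, Rfc1 and Rfc2 were also called once the trend on GC content and length was taken out, and none without the replicate block.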

How the results depend on the processing

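None of the 40 genes was called for the virus comparison under the scalings, filters, tools, the fit without a replicate block, left-out libraries or left-out pairs that were run. Over all genes those settings called 0 to 2, apart from 7 in DESeq2 without a block, 61 in DESeq2 with it and 118 with no filter. The exception for the 40 was the male pairs alone, chosen after seeing the data and with 1 residual degree of freedom. There 11 of the 40 and 5035 of all genes were called. The female pairs alone gave 0 and 732. The number called for the male minus female difference was 9 in the paired fit (4470 of all genes), 0 with no replicate block (0 of all genes) and 4 after the GC and length trend was removed (1610). DESeq2 with the block, on all 8 libraries, gave 6 (3389), losing Mcm5, Pold1 and Rpa2. Leaving out 1 pair, and so using fewer libraries, gave 3 to 15 (2353 to 4972). The causes of these changes were not tested. No sign of a called male minus female difference turned. Depth limits the least abundant genes most, with Orc1 at 34 counts in its lowest library.

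Among the 32 genes the naming rule covers, signs of virus differences, none of them called in the paired fit of all 8 libraries, turned as follows, and the cause was not tested. Cdc45 and Gins2 were at 0.013 and 0.016 with relative log expression scaling, 0.014 and 0.013 with limma-voom, 0.022 and 0.025 with no filter, 0.020 and 0.021 with DESeq2 and a block, 0.043 and 0.054 in the edgeR fit with no replicate block and 0.065 and 0.076 in DESeq2 without it. Without the block Mcm5 was at 0.027 in edgeR and 0.049 in DESeq2, where Cdc6 was at 0.019 and Mcm7 at 0.021. After the GC and length trend was removed, Cdc45 was at 0.026, Prim1 at 0.12, Rfc4 at 0.15 and Rrm2 at 0.050; outside the rule, Lig1 turned to -0.031 and Rfc2 to -0.035. In the female pairs alone Cdt1 was at -0.16, Mcm4 at 0.0021, Pola1 at 0.064, Prim1 at 0.16, Rfc1 at 0.29 and Rfc3 at -0.12. In the male pairs alone Cdc45 was at 0.20, Cdc6 at 0.15, Fen1 at 0.11, Gins2 at 0.33, Mcm5 at 0.20, Mcm7 at 0.19, Pold1 at 0.13 and Tyms at 0.026. Outside the rule, the male response in the interaction fit was 0.071 for Rpa1, 0.19 for Rpa2 and 0.093 for Chaf1a, against negative differences over all pairs. The female response in that fit was -0.046 for Mcm3, -0.23 for Rfc2, -0.14 for Rfc5 and -0.14 for Lig1, against positive ones.

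Single libraries were left out in edgeR fits without the replicate block, and pairs in fits with it. The ranges below therefore also include the change of model and, where 1 library is missing, differences in level between replicates. Leaving out 1 library or pair at a time, differences whose sign turned ranged as follows: Mcm5 -0.23 to 0.21, Mcm7 -0.17 to 0.14, Cdc6 -0.37 to 0.34, Cdt1 -0.17 to 0.25, Mcm10 -0.50 to 0.11, Cdc45 -0.17 to 0.21, Gins2 -0.18 to 0.20, Rfc4 -0.22 to 0.0050, Prim1 -0.17 to 0.12, Pold1 -0.22 to 0.053, Pole -0.063 to 0.33, Fen1 -0.26 to 0.15, Ung -0.065 to 0.32, Rrm2 -0.29 to 0.19, Tyms -0.15 to 0.031, Uhrf1 -0.092 to 0.33 and Ccne1 -0.24 to 0.011.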
